A study of Homo sapiens with 4 samples.

Results

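Tubulin and stathmin genes were followed through RNA interference against BORIS in Caco-2 and HCT116, which are human cell lines from colorectal cancers. The set held 10 genes, the 8 tubulin genes TUBA1A, TUBA1B, TUBA1C, TUBB, TUBB2A, TUBB2B, TUBB3 and TUBB6 and the 2 stathmin genes STMN1 and STMN3, and its members were all probe sets annotated to one of these symbols alone. That gave 27 of the 49395 probe sets on the array. The set was chosen by measured values: TUBA1A and STMN3 had been named earlier from the log2 difference between siRNAs on these same arrays, so the differences between siRNAs below are descriptions with no test. Each line was transfected for 3 days with BORIS siRNA or with a negative control siRNA, and total RNA of each of the 4 samples was hybridised to 1 Affymetrix PrimeView array, a 3′ expression array. The groups were therefore Caco-2 with BORIS siRNA, Caco-2 with negative control siRNA, HCT116 with BORIS siRNA and HCT116 with negative control siRNA, with 1 array each and no replicate check within a group. All samples came from cultured cancer lines, and the genes' behaviour in tissue was not measured.

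Microtubules are hollow polymers of α- and β-tubulin pairs, and they form the mitotic spindle and the tracks for transport inside cells. Humans have several α- and β-tubulin genes, whose isotypes are similar in sequence and differ in the tissues that use them. Stathmins bind free tubulin pairs and favour microtubule shortening, and their phosphorylation in mitosis releases that hold. BORIS, encoded by CTCFL, is a relative of the chromatin insulator CTCF, largely limited to male germ cells and certain cancers.

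The RefSeq promoter table holds the 250 bases before each annotated start on build GRCh38.p14, and it gave 17 such windows for the 10 genes. Those of 6 genes are printed here because the results below turn on them: TUBA1A and STMN3 had the largest differences between siRNAs by their brightest probe sets, TUBB3 and TUBB2A the next, and TUBB6 and STMN1 differed between the lines. For genes with several annotated starts, the window with the most kinds of motif match is shown. The windows are TUBA1A chr12:49189081-49189330 (minus strand), TUBB3 chr16:89923092-89923341 (plus strand), TUBB2A chr6:3157545-3157794 (minus strand), TUBB6 chr18:12307991-12308240 (plus strand), STMN1 chr1:25906420-25906669 (minus strand) and STMN3 chr20:63652767-63653016 (minus strand). Each sequence runs 5′ to 3′ on the gene's strand and ends at the base before the start, with capitals marking the matches of the motifs given after them.
TUBA1A: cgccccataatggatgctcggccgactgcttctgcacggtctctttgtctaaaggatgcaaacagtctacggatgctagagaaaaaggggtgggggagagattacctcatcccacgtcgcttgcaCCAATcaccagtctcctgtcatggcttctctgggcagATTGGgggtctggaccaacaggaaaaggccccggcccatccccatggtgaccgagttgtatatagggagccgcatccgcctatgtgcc
TUBB3: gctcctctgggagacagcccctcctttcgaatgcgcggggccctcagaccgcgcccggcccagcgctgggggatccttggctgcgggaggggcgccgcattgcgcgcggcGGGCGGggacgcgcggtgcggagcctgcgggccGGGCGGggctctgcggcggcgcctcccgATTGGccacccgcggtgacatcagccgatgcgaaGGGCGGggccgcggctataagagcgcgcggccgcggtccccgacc
TUBB2A: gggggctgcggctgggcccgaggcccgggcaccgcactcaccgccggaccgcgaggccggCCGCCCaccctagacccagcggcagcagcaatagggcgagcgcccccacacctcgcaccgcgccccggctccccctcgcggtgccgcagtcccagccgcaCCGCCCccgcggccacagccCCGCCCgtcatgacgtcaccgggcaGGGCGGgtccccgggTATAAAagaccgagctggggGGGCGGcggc
TUBB6: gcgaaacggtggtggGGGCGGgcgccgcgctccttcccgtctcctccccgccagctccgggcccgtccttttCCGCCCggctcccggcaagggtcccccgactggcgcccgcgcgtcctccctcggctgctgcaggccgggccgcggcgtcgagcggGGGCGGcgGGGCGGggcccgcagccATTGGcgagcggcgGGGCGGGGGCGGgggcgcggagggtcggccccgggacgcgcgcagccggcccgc
STMN1: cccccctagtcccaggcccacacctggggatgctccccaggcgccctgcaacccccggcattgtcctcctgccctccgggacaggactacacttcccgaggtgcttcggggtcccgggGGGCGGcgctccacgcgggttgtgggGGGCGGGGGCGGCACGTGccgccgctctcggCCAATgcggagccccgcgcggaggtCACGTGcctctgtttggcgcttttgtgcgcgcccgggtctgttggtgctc
STMN3: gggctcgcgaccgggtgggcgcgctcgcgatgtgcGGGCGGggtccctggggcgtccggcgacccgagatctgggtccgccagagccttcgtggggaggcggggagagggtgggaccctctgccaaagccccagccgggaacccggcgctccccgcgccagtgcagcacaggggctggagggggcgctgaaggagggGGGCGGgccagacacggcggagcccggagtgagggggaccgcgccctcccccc

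Searched on both strands, with overlapping matches allowed, were the TATA box TATAAA, the CCAAT box CCAAT, the GC box GGGCGG, the E-box CACGTG and a CTCF-type motif of 14 letters, 2 of them open. TATAAA was present in 1 of the 17 windows, that of TUBB2A, and in 10.7% of all 35116 windows in the table. CCAAT stood in 9 of the 17 windows, belonging to 7 of the genes, and in 32% of all windows. Among the 9 were 2 overlapping windows of TUBA1C that held the same CCAAT site. The TUBA1A window held CCAAT 2 times and no GC box, whereas the STMN3 window held the GC box 2 times and no CCAAT box. The letters GGGCGG were found in 11 of the 17 windows, of 9 of the genes, and in 42.6% of all windows, with 6 matches in the TUBB6 window and 5 in that of TUBB2A. CACGTG was in 3 of the 17 windows, among them the printed one of STMN1 with 2 matches, and in 6.34% of all windows. The CTCF-type motif matched in 0 of the 17 windows and in 0.0513% of all windows, which says only that these letters were not in the searched bases. The windows also differed in base composition, with 56.4% G and C in that of TUBA1A, 73.2% in that of STMN1, 78% in those of TUBB3 and STMN3, 79.2% in that of TUBB2A and 83.6% in that of TUBB6.

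Values are the deposited log2 expression values, and a difference of 1 is 2-fold. Array medians lay between 5.46 and 5.48. An array's background was taken as the 95th percentile of its olfactory receptor probe sets, 4.82 and 5.06 with BORIS and control siRNA in Caco-2 and 5.18 and 5.10 in HCT116. Of 10 intestinal epithelial markers, 9 and 9 were above background in Caco-2 and 7 and 7 in HCT116. CDX1 was at background on all arrays, and VIL1 and LGALS4 were at background in HCT116. All 9 fibroblast markers were at background throughout. Of 7 blood markers measured, PTPRC, CD3E, CD3D and CD14 were at background on all arrays, and CD68, LST1 and TYROBP were above it on all 4, with differences between siRNAs of -0.18 to -0.05 in Caco-2 and 0.11 to 0.49 in HCT116. Of 7 endothelial markers, VWF and KDR were above background on all 4 arrays, and the remaining 5 on none. The target itself could not be followed: of the 7 CTCFL probe sets, 1 was above background on any array, at 5.09 with BORIS siRNA and 5.07 with control siRNA in Caco-2, and 0 reached the array median. Labelling and hybridisation controls differed between the HCT116 arrays, with a median BORIS minus control difference of 0.88 over the poly-A spike-in probe sets and 0.36 over the hybridisation spike-ins, against -0.03 and -0.01 in Caco-2. The same controls differed between the lines, with poly-A medians of 8.18 and 7.32 in HCT116 and 6.30 and 6.47 in Caco-2 and hybridisation medians of 10.33 and 9.89 in HCT116 and 9.43 and 9.45 in Caco-2. The 3′ minus 5′ difference of the ACTB control probe sets was 1.47 and 1.34 in HCT116 and 0.97 and 1.05 in Caco-2. The part of these technical differences in the HCT116 results and in the line comparison was not tested.

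Probe sets annotated to 1 gene alone were analysed for 8 of the 10 genes. TUBA1B, a broadly expressed α-tubulin, and TUBB2B, a β-tubulin of the developing brain, were followed only through probe sets shared with another gene. A probe set shared by TUBA1A and TUBA1B read 12.53 with BORIS siRNA and 12.62 with control siRNA in Caco-2, and 12.47 and 12.45 in HCT116. The second such probe set read 12.58 and 12.63 in Caco-2 and 12.49 and 12.43 in HCT116, so both differed by less than 0.10 in either line. The probe set shared by TUBB2B and DXO was above background only with BORIS siRNA in Caco-2, where it read 5.20 against 4.91 with control siRNA. Of the 27 own probe sets, 20 were above background on all 4 arrays, 5 on none and 2 on the HCT116 arrays only. Most, 14 and 7, were of the _x_at and _s_at kinds, which can bind related transcripts, and this applies to every probe set of the tubulin genes except 1 of TUBB6.

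**Figure D1:**
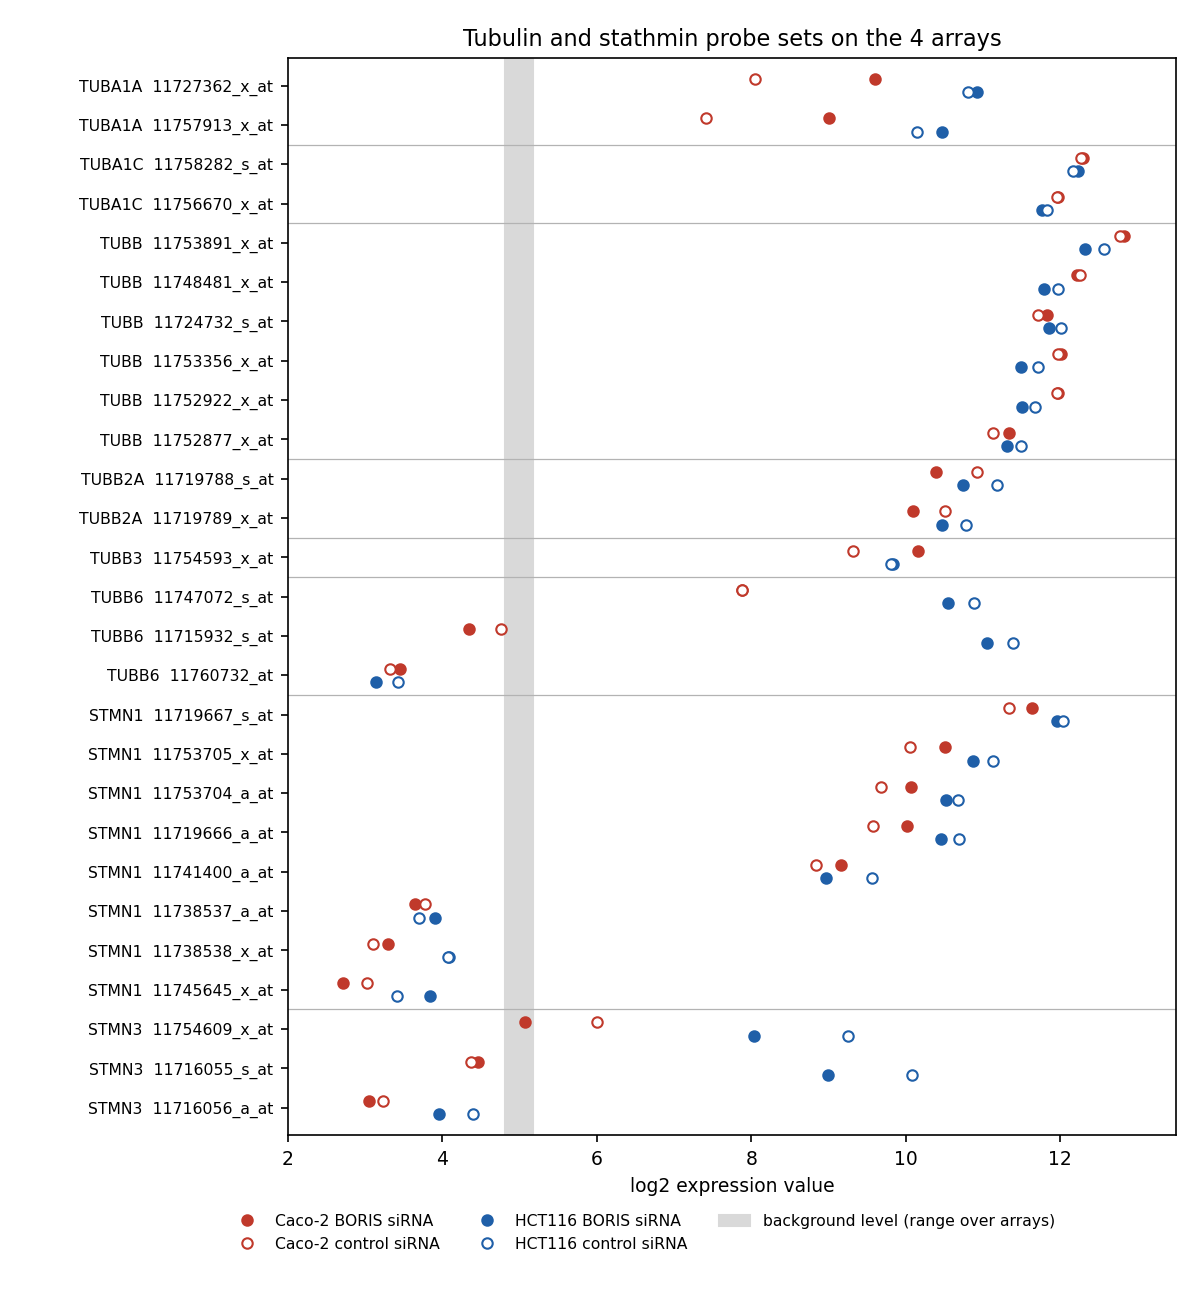
Log2 expression values (horizontal axis) of the 27 probe sets of the 8 genes with probe sets of their own, 1 row per probe set, with filled circles for BORIS siRNA, open circles for control siRNA, red for Caco-2 and blue for HCT116, and the grey band for the range of background levels over the arrays. The TUBA1A probe sets lie furthest apart between siRNAs in Caco-2, STMN3 lies apart in HCT116, and TUBB6 and STMN3 are brighter in HCT116 than in Caco-2.

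With BORIS siRNA, the α-tubulin gene TUBA1A was brighter in Caco-2 and nearly level in HCT116. TUBA1A encodes the main α-tubulin of developing neurons, and mutations in it disturb the folding of the human cortex. Its brighter probe set read 9.60 with BORIS siRNA and 8.04 with control siRNA in Caco-2, and 10.92 and 10.81 in HCT116. The second read 9.01 and 7.41 in Caco-2 and 10.47 and 10.14 in HCT116. These are bulk samples, in which fewer cells using a gene and less RNA per cell cannot be told apart. Both probe sets placed the control Caco-2 array lowest, the BORIS Caco-2 array next and the HCT116 arrays highest. The log2 difference in Caco-2 was 1.56 and 1.60, a 2.95-fold higher linear value for the brighter probe set, and in HCT116 it was 0.11 and 0.33. Among the 10389 expressed genes of Caco-2, counted as those reaching the array median on at least 1 of the line's 2 arrays and each represented by its probe set with the highest mean, TUBA1A ranked 7 in difference towards BORIS siRNA. TUBA1C, a neighbour of TUBA1A on chromosome 12 and a broadly used α-tubulin, read 12.29 and 12.26 in Caco-2 and 12.23 and 12.17 in HCT116. Its differences on both probe sets lay between -0.06 and 0.07 in the 2 lines.

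TUBB3, the β-tubulin used as a neuronal marker and studied in taxane-resistant tumours, was also brighter with BORIS siRNA in Caco-2. Its 1 probe set read 10.16 with BORIS siRNA and 9.32 with control siRNA there, and 9.84 and 9.81 in HCT116. The HCT116 values lay between those of Caco-2, and the difference of 0.85 in Caco-2, 1.80-fold, compared with 0.03 in HCT116. In Caco-2 TUBB3 ranked 79 towards BORIS siRNA and stayed under 2-fold.

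TUBB2A, a β-tubulin abundant in brain, was dimmer with BORIS siRNA in both lines on both probe sets. The brighter read 10.40 with BORIS siRNA and 10.93 with control siRNA in Caco-2, and 10.74 and 11.18 in HCT116. The other read 10.09 and 10.51 in Caco-2 and 10.46 and 10.78 in HCT116. The differences were -0.53 and -0.41 in Caco-2 and -0.44 and -0.32 in HCT116. Each lay under 2-fold, and those of Caco-2 lay below the 5th percentile of the line's expressed genes, -0.37, while those of HCT116 did not reach its 5th percentile, -0.73. TUBB2A and STMN3 were the only genes of the set with lower values under BORIS siRNA in both lines on every probe set above background on all 4 arrays.

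TUBB, the β-tubulin of most dividing cells, had 6 probe sets, all bright. Its brightest read 12.83 with BORIS siRNA and 12.77 with control siRNA in Caco-2, and 12.33 and 12.57 in HCT116. Over the 6, the difference ran from -0.03 to 0.21 in Caco-2, where 5 were higher and 1 lower, and from -0.24 to -0.16 in HCT116, where all 6 were lower. These probe sets share the gene and overlap in sequence, so they are not replicates of the effect.

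TUBB6, a β-tubulin found in many tissues and raised in regenerating muscle, was separated by line more than by siRNA. The probe set that was measurable in both lines read 7.88 with BORIS siRNA and 7.87 with control siRNA in Caco-2, and 10.55 and 10.89 in HCT116. Its difference of 0.01 in Caco-2 became -0.04 after quantile normalisation and -0.0032 after loess correction, and it was -0.34 in HCT116. The second probe set was at background on both Caco-2 arrays, at 4.35 and 4.76, and read 11.06 and 11.40 in HCT116, a difference of -0.34. The third was at background on all 4 arrays.

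STMN1, the stathmin of proliferating cells and many tumours, differed in opposite senses in the lines. Of its 8 probe sets, 5 were above background on all arrays. The brightest read 11.64 with BORIS siRNA and 11.33 with control siRNA in Caco-2, and 11.96 and 12.03 in HCT116. In Caco-2 all 5 were higher with BORIS siRNA, by 0.31 to 0.44, and in HCT116 all 5 were lower, with differences from -0.59 to -0.07. All of these lay inside the 95th percentile of expressed genes in Caco-2, 0.48, and the 5th percentile in HCT116, -0.73. The 5 probe sets read the same gene and are not replicates of the effect. The low end in HCT116 was 1 probe set that read 8.97 with BORIS siRNA and 9.56 with control siRNA, and that read 9.16 and 8.84 in Caco-2. Proliferation markers, measured beside STMN1, stood at a median of 0.04 in Caco-2 with 8 of 15 above 0, and at -0.10 in HCT116 with 4 of 15 above 0. With a gene's probe sets averaged, the Caco-2 median was -0.04 with 7 of 15 above 0. The most different in Caco-2 were TOP2A at 0.42, CENPF at 0.39 and MKI67 at 0.31, and in HCT116 TPX2 at -0.70, FOXM1 at -0.68 and CDC20 at -0.63, and their part in the STMN1 values was not tested.

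STMN3, a membrane-bound stathmin mainly known from neurons, was dimmer with BORIS siRNA in both lines on its brightest probe set. That probe set read 5.07 with BORIS siRNA and 6.00 with control siRNA in Caco-2, and 8.03 and 9.25 in HCT116. The differences were -0.93 and -1.22, with control values 1.90-fold and 2.33-fold those with BORIS siRNA, and STMN3 ranked 10 of 10389 and 55 of 10631 expressed genes towards lower values. The Caco-2 values were close to background, and the part of that in the difference was not tested. A second probe set read 8.99 with BORIS siRNA and 10.08 with control siRNA in HCT116, a difference of -1.09, and was at background on both Caco-2 arrays at 4.46 and 4.37. The third probe set was at background everywhere. In Caco-2 the value therefore rested on 1 probe set: it was -0.34 as the mean of all 3 probe sets and 0.05 with 16 added on the linear scale, a setting in which the second probe set represents the gene.

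**Figure D2:**
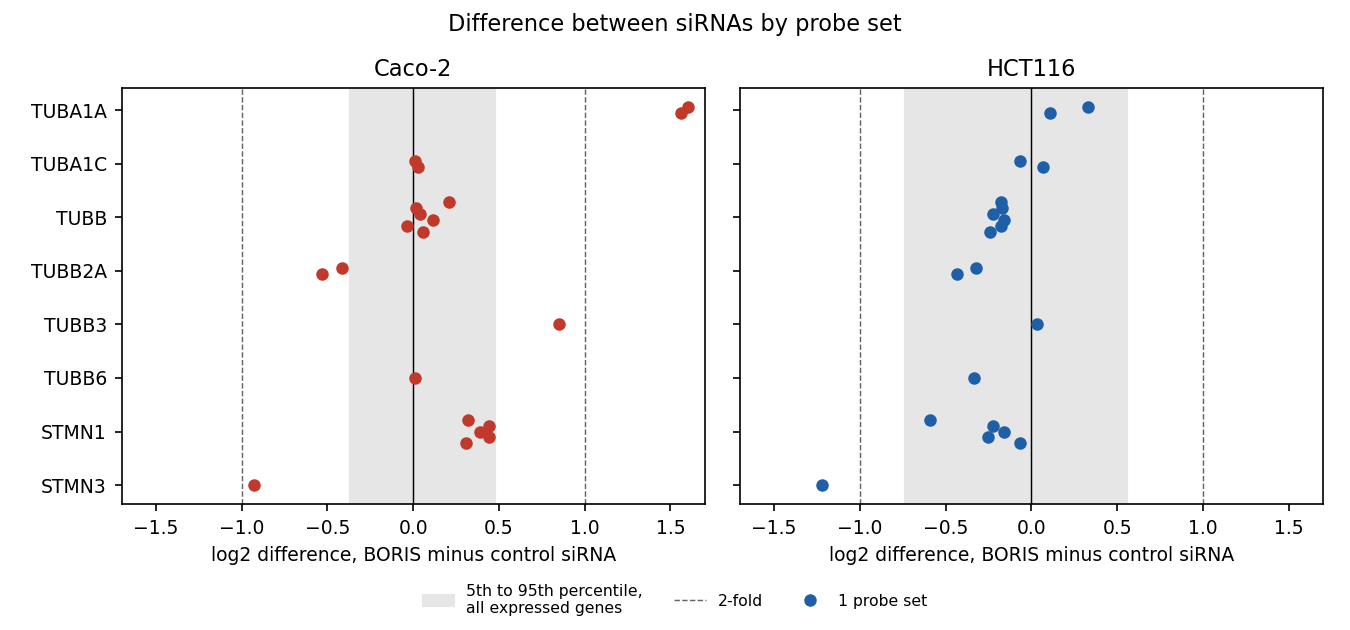
Log2 difference between BORIS and control siRNA (horizontal axis) for each of the 20 probe sets above background on all 4 arrays, by gene, in Caco-2 (left) and HCT116 (right), with the 5th to 95th percentile of all expressed genes in grey and 2-fold as dashed lines. The TUBA1A probe sets lie at 1.56 and 1.60 in Caco-2, STMN3 lies at -1.22 in HCT116, and the sign for TUBB6 in Caco-2 flips under quantile normalisation and loess correction.

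Counted over the 8 genes by their brightest probe set, 1 was higher and 0 were lower at 2-fold in Caco-2, where 0.452% of all expressed genes reached 2-fold (47 of 10389, with 42 or 0.404% higher and 5 or 0.0481% lower). In HCT116 0 were higher and 1 was lower, where 2.03% did (216 of 10631, with 62 or 0.583% higher and 154 or 1.45% lower). These contrasts had already been used to name TUBA1A and STMN3, and nothing is read from the counts. Median differences of the 8 genes were 0.04 in Caco-2 and -0.15 in HCT116, beside 0.0026 and -0.05 over all expressed genes, and 6 of 8 and 3 of 8 lay above 0. Of the 20 bright probe sets, 2 reached 2-fold in Caco-2 and 1 in HCT116, beside 0.287% and 1.45% of all probe sets above background on both arrays of the line. The 20 had to be above background on all 4 arrays, so the filters are not alike. Left out are the second probe sets of STMN3 and TUBB6, measurable in HCT116 only, at -1.09 and -0.34 there. A siRNA effect common to both lines, fitted with limma with line as a block over 11165 genes, was called for 0% of all genes at an adjusted p under 0.05, with a smallest adjusted p of 0.769. In that limma fit 670 genes had an unadjusted p under 0.05, and 82 and 57 genes were called after quantile normalisation and loess correction. The fit left 1 residual degree of freedom, which reflects how far the lines differed in their response.

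Genes whose 4 values most resembled those of the 2 leading members were sought among 9855 genes expressed in both lines, by Euclidean distance on log2 values centred on each gene's mean. Nearest to TUBA1A was AKAP12, a scaffold for protein kinase A, at a distance of 0.417. It read 11.11 with BORIS siRNA and 9.84 with control siRNA in Caco-2, and 12.49 and 12.85 in HCT116. The antisense RNA NR2F1-AS1 and the adhesion receptor gene ADGRF1 came next at 0.476 and 0.561, with Caco-2 differences of 0.90 and 1.05. Nearest to STMN3 was ANGPTL4, which encodes a secreted inhibitor of lipoprotein lipase, at 0.299. It read 4.92 and 5.71 in Caco-2 and 7.75 and 8.69 in HCT116. CDKN1A, the cyclin-dependent kinase inhibitor p21, followed at 0.569 and TRIM4 at 0.752. Their differences between siRNAs were -0.34 and -0.67 in Caco-2 and -0.68 and -0.52 in HCT116, smaller in size than those of STMN3, -0.93 and -1.22. The distance counts the difference between the lines along with that between siRNAs. The measure rests on 4 arrays and is a description only.

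The lines themselves were compared as HCT116 minus Caco-2 with limma, with siRNA as a block, over 11165 genes that reached the array median on at least 1 array. Each line had 2 arrays that differed in siRNA, and nothing says that they came from independent cultures. With 1 residual degree of freedom, limma drew each gene's standard error and p-value largely from the variance of other genes. These values therefore do not measure the spread between cultures, nor that of the gene's own arrays alone. The gene set was drawn up with results of the same arrays known, and its p-values are not independent evidence. At an adjusted p under 0.05, 5 of the 8 genes were called, 4 higher and 1 lower in HCT116, where 39.2% of all genes tested were called (19.4% higher and 19.8% lower). A called log2 difference of 2 or more in size was found for 3 of the 8, STMN3, TUBB6 and TUBA1A, and for 6.7% of all genes tested. TUBA1A stood close to that cut, at 2.0406, and at 1.9958 with 16 added on the linear scale. TUBA1A and STMN3 had been named from these same arrays, so nothing is read from these counts.

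STMN3 and TUBB6 had the largest line differences of the set. The STMN3 probe set averaged 8.64 in HCT116 and 5.54 in Caco-2, a limma log2 difference of 3.10 with a standard error of 0.19, 8.59-fold (adjusted p = 7.1e-05). The TUBB6 probe set averaged 10.72 in HCT116 and 7.88 in Caco-2, a limma log2 difference of 2.84 with a standard error of 0.18, 7.18-fold (adjusted p = 8.57e-05). In both genes the 2 HCT116 arrays lay above the 2 Caco-2 arrays by more than the arrays of a line differed. The second probe sets, which were at background in Caco-2, gave lower bounds against the mean background of the Caco-2 arrays, given as descriptions with no test since these probe sets were measurable in HCT116 only. For that of TUBB6 the HCT116 value was at least 78.1-fold higher. For that of STMN3 it was at least 24.2-fold higher. These bounds lie above the 7.18-fold and 8.59-fold of the brightest probe sets of TUBB6 and STMN3, so the probe sets of each gene disagreed in size. The bounds therefore describe these probe sets and are no floor for the genes, and the reason for the disagreement was not tested.

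TUBA1A averaged 10.86 in HCT116 and 8.82 in Caco-2, a limma log2 difference of 2.04 with a standard error of 0.32 (adjusted p = 0.0039). The difference was 1.32 between the BORIS siRNA arrays and 2.77 between the control siRNA arrays, so its size depended on which siRNA was compared. On its brightest probe set STMN1 was higher on both HCT116 arrays than on both Caco-2 arrays, with a limma log2 difference of 0.51 with a standard error of 0.13 (adjusted p = 0.024). It was 0.32 between the BORIS siRNA arrays and 0.70 between the control siRNA arrays. The call for STMN1 was lost without the filter on dim genes (adjusted p = 0.0526) and without the variance trend (adjusted p = 0.0858) in limma.

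TUBB was lower in HCT116, with averages of 12.45 in HCT116 and 12.80 in Caco-2, a limma log2 difference of -0.35 with a standard error of 0.11 (adjusted p = 0.0411). The call was lost in limma without the filter on dim genes (adjusted p = 0.0949), with the background filter (0.0502), with its probe sets averaged (0.226) and without the variance trend (0.186). Its probe sets disagreed: 4 of the 6 were lower in HCT116, and the other two stood at 0.17 and 0.17 (limma adjusted p = 0.311 and 0.388). TUBB2A, with 10.96 in HCT116 and 10.66 in Caco-2, was not called (limma log2 difference 0.30, standard error 0.14, adjusted p = 0.13). TUBB3, with 9.82 in HCT116 and 9.74 in Caco-2, was not called either (limma log2 difference 0.08, standard error 0.23, adjusted p = 0.801), and its single-siRNA differences had opposite signs, -0.33 between the BORIS arrays and 0.49 between the control arrays. TUBA1C averaged 12.20 in HCT116 and 12.28 in Caco-2 (limma log2 difference -0.08, standard error 0.10, adjusted p = 0.577). By the brightest probe set, the arrays of the lines overlapped for TUBB2A and TUBB3 and for no other gene of the 8. Other probe sets above background on all 4 arrays overlapped for TUBB and STMN1 too. That of TUBB read 11.34 and 11.13 in Caco-2 and 11.31 and 11.49 in HCT116. That of STMN1 read 9.16 and 8.84 in Caco-2 and 8.97 and 9.56 in HCT116.

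**Figure D3:**
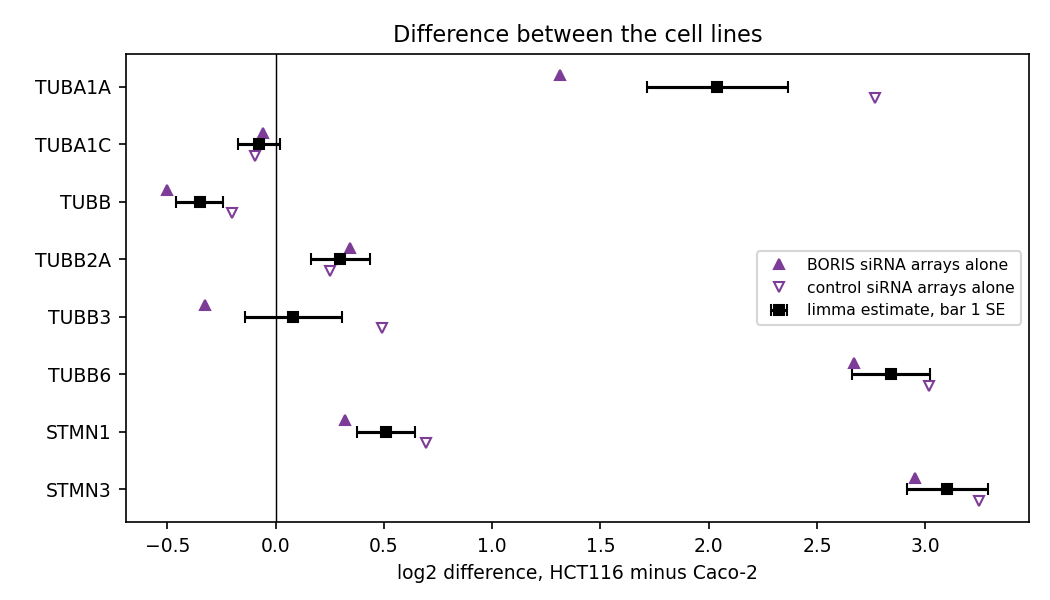
Log2 difference of HCT116 minus Caco-2 (horizontal axis) for the 8 genes, as the limma estimate with 1 standard error (squares with bars) and from the BORIS siRNA arrays alone (filled triangles) and the control siRNA arrays alone (open triangles). STMN3, TUBB6 and TUBA1A lie at 3.10, 2.84 and 2.04, and the triangles of TUBA1A are spread furthest apart, at 1.32 and 2.77.

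Neuronal markers were measured beside these genes, several of which are used by neurons. Of 12 markers, 7 and 7 were above background with BORIS and control siRNA in HCT116, and 5 and 4 in Caco-2. Their summed linear values were 897.7 and 986.1 in HCT116 and 482.8 and 579.9 in Caco-2. ELAVL3, ELAVL4, DCX, INA and STMN2 were at background on all 4 arrays. Between the lines 6 were tested, but SYT1, MAP2 and RBFOX3 reached the array median in HCT116 only, so their limma results are not read. SYT1 was at background in Caco-2 and read 7.66 and 8.29 in HCT116, and MAP2 was at background on the Caco-2 control array. SYP, SNAP25 and GAP43 were not called between the lines (limma adjusted p = 0.751, 0.174 and 0.27). In Caco-2 the 3 expressed markers were lower with BORIS siRNA, GAP43 at -0.39, SYP at -0.38 and SNAP25 at -0.30. MAP2, below the array median there, read 4.85 with BORIS siRNA and was at background at 4.09 with control siRNA. In HCT116 4 of the 6 expressed markers were above 0, with a median of 0.06: RBFOX3 stood at 0.58, SNAP25 at 0.42, SYP at 0.09 and GAP43 at 0.03, and MAP2 stood at -0.92 and SYT1 at -0.63. RBFOX3 was dim, at 5.79 with BORIS siRNA and 5.20 with control siRNA, the latter close to its array's background of 5.10. The part of these markers in the tubulin and stathmin values was not tested.

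The remaining tubulin genes gave values below 0 in Caco-2 and mostly above 0 in HCT116. In Caco-2 0 of 9 expressed genes were above 0 and 9 below, with a median of -0.24, beside 5245 above and 5134 below 0 and a median of 0.0026 over all expressed genes. This held for 9 of 9 after quantile normalisation and after loess correction, and for 8 of 9 with a gene's probe sets averaged. In HCT116 7 of 10 were above 0 and 3 below, with a median of 0.08, beside 4731 above and 5893 below and a median of -0.05 over all expressed genes. None reached 2-fold in either line. By role, the α-tubulins TUBA3C, TUBA3D, TUBA3E and TUBA4A stood at -0.48, -0.31, -0.24 and -0.25 in Caco-2 and at 0.10, 0.39, 0.19 and 0.06 in HCT116. TUBA3C, TUBA3D and TUBA3E are near-identical copies, and their probe sets may share signal. They were also dim, at 5.84, 6.54 and 5.70 with BORIS siRNA in Caco-2 and 6.32, 6.85 and 5.94 with control siRNA. TUBA4A read 10.38 and 10.63 there. TUBB4B, a β-tubulin of cilia and dividing cells, read 12.06 with BORIS siRNA and 12.30 with control siRNA in Caco-2 and 11.86 and 11.95 in HCT116, differences of -0.24 and -0.09. TUBG1, the γ-tubulin that nucleates microtubules, read 10.32 and 10.59 in Caco-2 and 10.11 and 10.64 in HCT116, differences of -0.27 and -0.53, and was lower in both lines. TUBG2, its paralog, stood at -0.16 in Caco-2 and 0.04 in HCT116. TUBD1 and TUBE1, the δ- and ε-tubulins of centrioles, stood at -0.19 and -0.06 in Caco-2 and at 0.31 and 0.29 in HCT116. TUBB4A was expressed in HCT116 only, at a difference of -0.08. TUBAL3, TUBB1 and TUBB8 were at background on all arrays, and TUBA8 was not analysed here. Between the lines, limma called TUBE1 at 0.76 (adjusted p = 0.0198) higher in HCT116 and TUBA4A at -1.17 (adjusted p = 0.00253) lower. TUBB4A read 6.25 and 6.33 in HCT116 and was at background on both Caco-2 arrays.

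**Figure D4:**
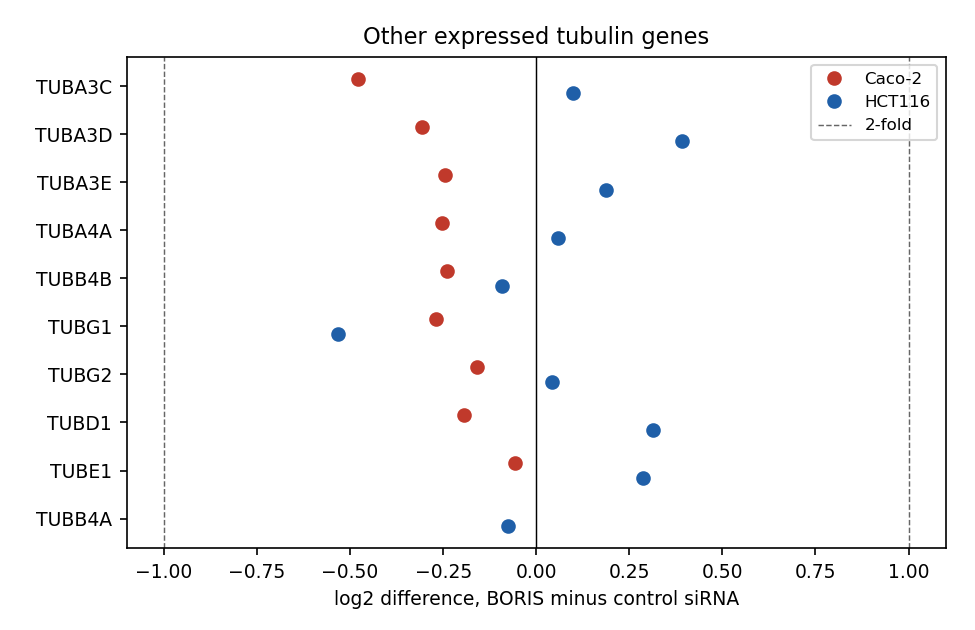
Log2 difference between BORIS and control siRNA (horizontal axis) of the other expressed tubulin genes, with red for Caco-2 and blue for HCT116 and 2-fold as dashed lines. All 9 Caco-2 values lie below 0, between -0.48 and -0.06, as they do after quantile normalisation and loess correction (8 of 9 with a gene's probe sets averaged), and 7 of the 10 HCT116 values lie above 0.

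Genes that fold, modify, organise or sever microtubules were described from lists by function, and 0 of their expressed members reached 2-fold in either line, beside 0.452% and 2.03% of all expressed genes. Of the folding and mRNA control genes, which include the chaperonin CCT, prefoldin and the tubulin cofactors, 6 of 21 were above 0 in Caco-2 with a median of -0.07 and 14 of 22 in HCT116 with a median of 0.06. The prefoldin subunit gene PFDN6 stood at -0.36 and 0.51, and the cofactors TBCB at -0.26 and -0.52 in Caco-2 and HCT116, TBCC at -0.25 in Caco-2 and TBCD at -0.58 in HCT116. Modifying enzymes were above 0 in 6 of 12 in Caco-2 with a median of 0.0057, and in 5 of 13 in HCT116 with a median of -0.21. VASH2, which with its partner removes the end tyrosine of α-tubulin, stood at 0.78 in Caco-2, and AGTPBP1, which trims glutamates from tubulin tails, at 0.42. MATCAP1, another detyrosinase, stood at -0.34 there. VASH2 and MATCAP1 were dim in Caco-2, at 6.26 and 5.59 with BORIS siRNA and 5.48 and 5.93 with control siRNA. In HCT116 the tyrosine ligase TTL stood at -0.38, the polyglutamylase TTLL4 at -0.47 and the acetyltransferase ATAT1 at -0.44.

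Microtubule-associated protein genes were above 0 in 10 of 19 in Caco-2 (median 0.01) and in 4 of 21 in HCT116 (median -0.17). MAP2, which also stands among the neuronal markers, the minus-end binding CAMSAP1 and MAP1S stood at -0.92, -0.76 and -0.76 in HCT116, and CKAP2, MAPT and CLIP1 at 0.32, 0.29 and 0.24 in Caco-2. MAPT was dim there, at 5.59 with BORIS siRNA and 5.30 with control siRNA. Severing and depolymerising genes were above 0 in 6 of 9 in Caco-2 (median 0.18) and in 4 of 9 in HCT116 (median -0.07). KATNAL1, a katanin subunit gene, read 6.21 with BORIS siRNA and 5.54 with control siRNA in Caco-2 and 7.76 and 8.45 in HCT116, differences of 0.67 and -0.69 that pointed in opposite senses. FIGNL1 and KIF24 stood at 0.28 and -0.27 in Caco-2, and the kinesin KIF18A at 0.40 and the severing enzyme SPAST at -0.48 in HCT116. Genes of the γ-tubulin ring and its augmin partners were divided evenly, 9 of 17 above 0 in Caco-2 (median 0.01) and 9 of 18 in HCT116 (median 0.03). Among them AKAP9, HAUS6 and MZT2A stood at 0.42, 0.35 and -0.32 in Caco-2, and HAUS1, TUBGCP3 and CDK5RAP2 at 0.69, -0.50 and -0.45 in HCT116. Kinases and a phosphatase that act on stathmin were above 0 in 8 of 13 in Caco-2 (median 0.01) and in 3 of 13 in HCT116 (median -0.14). PRKACB, a catalytic subunit of protein kinase A, read 7.38 with BORIS siRNA and 6.40 with control siRNA in Caco-2, a difference of 0.98 that stayed under 2-fold, and UHMK1 and PPP2CA stood at -0.62 and -0.21 there. In HCT116 CDK1, CAMK2D and PRKACA stood at 0.31, 0.31 and -0.44. Medians this close to 0 were not stable in sign: in Caco-2 those of the modifying, microtubule-associated, γ-tubulin ring and kinase lists were below 0 after quantile normalisation, between -0.04 and -0.0074, and in HCT116 that of the severing list was 0.05 and that of the γ-tubulin ring list -0.07 with a gene's probe sets averaged.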

How the data were processed

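Total RNA of 2 cell lines under 2 siRNAs was measured on 4 arrays, 1 per group. Per the labels' protocols, TRIzol was used for extraction, and a 3′ IVT kit gave cRNA carrying biotin. The table deposited by the authors holds log2 values for each probe set, a scale taken from their range. How the authors corrected background, normalized and summarised is not stated in labels or headers used here. Gene names came from the array's annotation table, in which 44988 probe sets carried 1 gene, and symbols were checked in RefSeq (GRCh38.p14), which changed 0. Columns of other samples numbered 0.

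Each gene took the values of its brightest probe set (mean over the 4 arrays), giving 18132 genes. Within a line the difference was BORIS minus control siRNA, with no test. The line difference and the shared siRNA effect were fitted with limma 3.58.1 (lmFit, eBayes with trend) in R 4.3.3 over all genes tested, with Benjamini-Hochberg adjustment, and the fit was tested on simulated data. The simulation drew its variances from the same fit and held no difference in siRNA response between the lines. It therefore cannot check the p-values of these arrays. Tables were handled with pandas 2.3.3 in Python 3.11.15. The small number of arrays limits the precision. Alternatives were other filters on dim genes, the mean of a gene's probe sets, exclusion of the _x_at and _s_at kinds, quantile normalisation, loess correction, 16 added on the linear scale, no variance trend, no siRNA block and single-siRNA differences, and, chosen after seeing the data, each other probe set of a gene.

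The genes and lists were chosen with earlier results of these data known. Named were all members, every other tubulin gene, the up to 3 expressed genes per list and line with the largest absolute difference, the 3 genes nearest in pattern to TUBA1A and to STMN3, and the markers.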

Additional observations from a re-analysis of the deposited data

Results flagged for a closer look

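For 3 genes the difference between siRNAs had opposite signs in the lines, with 1 array per siRNA in each, and the difference between the lines was not tested. The siRNA difference in Caco-2 exceeded that in HCT116 by 0.30 for TUBB, by 0.35 for TUBB6 and by 0.37 for STMN1 on the log2 scale. For TUBB6 the value in Caco-2 was 0.01 and took the opposite sign under quantile normalisation and loess correction. For TUBB the Caco-2 value was 0.06, and over its probe sets it ran from -0.03 to 0.21, with 5 higher and 1 lower. For STMN1 the HCT116 value was -0.07, beside a median of -0.05 over all expressed genes, and it reached -0.59 on another probe set.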

How the results depend on the processing

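The number of expressed genes at 2-fold in Caco-2, 47, was 27 with the mean of a gene's probe sets (22 higher and 5 lower) and 17 with 16 added on the linear scale. In HCT116 the number, 216, was 94 with the mean (39 higher and 55 lower) and 108 with 16 added, and quantile normalisation gave 98 higher and 126 lower. Members at 2-fold numbered 0 in both lines without _x_at and _s_at probe sets. In that setting TUBA1A has no value. STMN3 is left with a probe set at background on all 4 arrays, so its -0.18 in Caco-2 and -0.45 in HCT116 are not measurements. Members at 2-fold also numbered 0 in HCT116 with the mean. There STMN3 stood at -0.92 with that background probe set averaged in, against -1.22 and -1.09 on its 2 probe sets measurable in HCT116. The shared siRNA effect, 0 genes in limma, was called for 82 genes after quantile normalisation and 57 after loess correction. The limma line difference of TUBB was 0.17 and 0.17 on 2 other probe sets, against -0.35, and its adjusted p was 0.0949 without a filter, 0.0502 with the background filter, 0.226 with the mean and 0.186 without the variance trend. The call for STMN1 was lost without a filter, without the trend and on 1 other probe set (0.27, limma adjusted p = 0.4). The causes were not tested, except that 16 added shrinks differences of dim genes by construction. TUBA1A in Caco-2 stayed between 1.50 and 1.58 in the settings that gave it a value. The labels give no replicate numbers, so the only blocks fitted were line and siRNA. The lack of replicate arrays and STMN3 values near background in Caco-2 limit the results.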
